A study of Mus musculus with 12 samples.

Results

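The step from day 4 to day 6 of doxycycline (Dox) was examined in AML246, a p53-deficient acute myeloid leukemia of the mouse in which a hairpin linked to GFP silences PU.1. Its members are the 6 libraries labelled 4 days or 6 days of Dox, 3 of each, among the 12 libraries of the series. All 6 share the p53-/- background, the PU.1 hairpin (shPU.1), the strain C57BL/6 and the source, bone marrow of leukemic recipient mice. The day 4 cells were sorted as GFPmid and the day 6 cells as GFPlow, so time on Dox and the sort gate cannot be told apart. Dox shuts the hairpin off and lets the endogenous PU.1 gene recover. No AML246 cells without the hairpin were analysed here, so Dox as a drug and the loss of the hairpin cannot be told apart. The untreated libraries (3), the same leukemia without Dox, served to find genes that the day 4 state had gained or lost. The sample titles call the replicates technical and the series design speaks of triplicate mice, so the spread behind the p-values is that between these samples and may be technical.

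PU.1, encoded by Spi1, is an ETS transcription factor that blood progenitors need to form granulocytes and monocytes. Neutrophils make their granules in sequence: primary granules with myeloperoxidase and serine proteases come first, secondary granules with lactoferrin follow, and gelatinase-rich tertiary granules come later. Receptors for bacterial peptides and chemokines, the respiratory burst oxidase and a lobed nucleus belong to the last stages. Monocytes branch from the same progenitors and carry the CSF1 receptor, lysosomal proteases and Fc receptors.

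Between day 4 and day 6 secondary granule and neutrophil genes rose steeply, and genes of ribosome building and biosynthesis fell. Part of the monocyte and lysosome genes gained by day 4 fell, while other members of these lists rose. Of 44 monocyte genes 10 rose and 12 fell, and of 43 lysosome genes 10 rose and 14 fell. The shares that rose were near the 23.6% of all genes tested, and 22.6% of all genes fell. Of 12057 genes tested, 2851 were higher at day 6 than at day 4 and 2726 were lower (edgeR quasi-likelihood test, Benjamini-Hochberg adjusted p under 0.05), or 46.3% of genes in either direction, 23.6% higher and 22.6% lower. Among them 987 were at least 2-fold higher and 904 at least 2-fold lower, and 160 and 70 reached 8-fold. The libraries of the 2 days did not overlap in 2678 of the 2851 higher and 2572 of the 2726 lower genes. The calls rest on these same libraries, so this is a description and no separate support. The share without overlap over all genes tested was not computed. Some genes belong to more than 1 of the lists below. Counts of called members in each list are to be read against the shares over all genes tested, 23.6% higher and 22.6% lower. Levels are given in CPM, the read count scaled to library size with TMM factors, and differences as log2 fold changes of day 6 over day 4 with their standard error (SE, 3 against 3 libraries).

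Library totals were 6449662 to 6728656 counts at day 4 and 6372953 to 7356166 at day 6, at which 3 counts, the limit that a count of 0 allows, corresponded on the TMM CPM scale to 0.437 to 0.45 CPM at day 4 and 0.482 to 0.64 CPM at day 6, for counting error only. Day 6 replicate 2 stood apart. Against the other day 6 libraries its counts varied 44.1 and 38.3 times as much as counting error gives, compared with 4.76 between those and 5.07 to 8.6 between day 4 pairs. It was the lowest day 6 library in 2277 of the higher genes and the highest in 1914 of the lower genes. Without it 3422 genes were higher and 3431 lower. The 10 genes with most reads took 15.6%, 9.63% and 14.2% of the counts at day 6 (replicates 1, 2 and 3) and 5.41% to 5.58% at day 4. The split of the calls moved with the scaling: 51.1% were higher under TMM, 34.6% under upper-quartile scaling and 17.5% under library totals (1331 higher and 6263 lower). The latter scalings moved the median log2 fold change over all genes by -0.16 and -0.40.

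**Figure D1:**
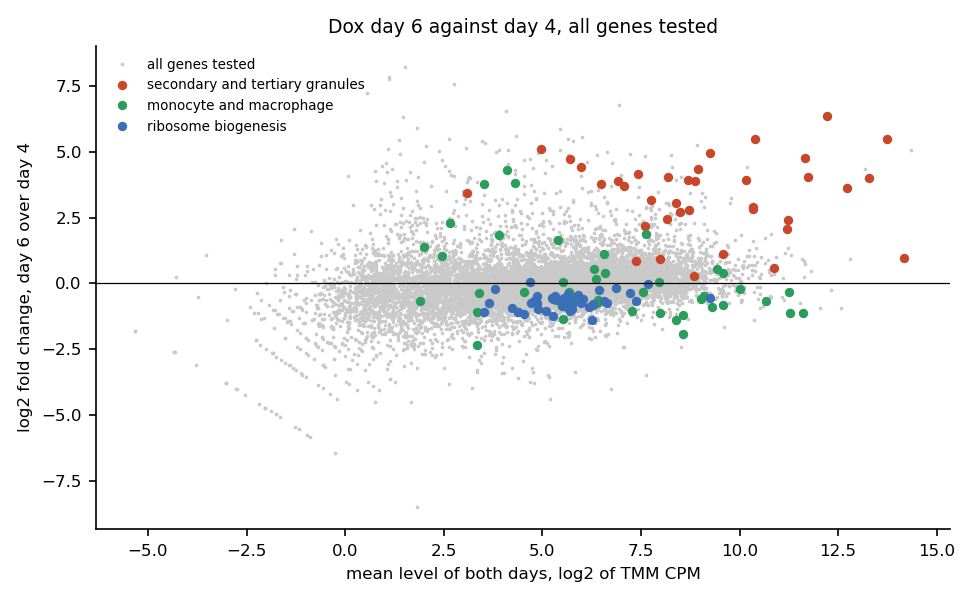
Log2 fold change of day 6 over day 4 (y axis) against the mean level of both days (x axis, log2 of TMM CPM), 1 point per gene tested that had counts at either day. Secondary and tertiary granule genes lie above 0 up to 6.35, ribosome biogenesis genes lie mostly below 0 (median -0.71), and monocyte and macrophage genes lie on both sides.

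The restored factor was higher at day 6. Spi1 (Entrez gene 20375, GRCm38 chromosome 2, 91082374 to 91115759) had 243.8, 267 and 269.5 CPM at day 4 and 497.3, 439.4 and 437.7 CPM at day 6. All day 6 libraries lay above all day 4 libraries, a ratio of 1.76 (log2 fold change 0.82 ± 0.11 SE, edgeR quasi-likelihood adjusted p = 8.61e-05). The exact two-sided permutation p was 0.1, the smallest that 3 against 3 libraries can give. Trp53, deleted according to the labels, had 26 to 33.3 CPM at day 4 and 14 to 17.2 CPM at day 6. These totals are not resolved by exon, so they do not test the deletion.

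Secondary and tertiary granule genes rose almost without exception. Of 37 members tested 36 rose and 0 fell. Their median log2 fold change was 3.71 against -0.03 over all genes tested, and the member not called, the protease inhibitor Slpi, lay at 0.28 (named after its value was seen). DESeq2 and limma voom also called 0 members lower, and 0 had an unadjusted p under 0.05 in that direction. The same held, in the direction without calls, for each list below that is given with 0 genes called under TMM scaling. Ltf, which encodes lactoferrin (Entrez 17002, chromosome 9, 111019292 to 111042766), had 70.1, 134.7 and 140 CPM at day 4 and 12761, 5327 and 10087 CPM at day 6. The gap between the days was far wider than the spread within either, with day 6 replicate 2 the lowest of its group (6.35 ± 0.57 SE, adjusted p = 1.95e-05). Ngp, neutrophilic granule protein, went from 305.4, 834.4 and 652.2 CPM to 36467.5, 13723.5 and 29293 CPM (5.47 ± 0.74 SE). Camp, the antimicrobial cathelicidin, went from 289.8, 566.4 and 315.6 CPM to 7709, 3968 and 7444 CPM (4.03 ± 0.50 SE). Lcn2, the siderophore-binding lipocalin of secondary granules, went from 150.7, 313.6 and 231.8 CPM to 7522, 4566 and 6633 CPM (4.75 ± 0.37 SE). In each of these genes the days were separate, and replicate 2 was the lowest at day 6. The gelatinase Mmp9 of tertiary granules rose from 32.3, 71 and 73.4 CPM to 2545, 2431 and 2957 CPM (5.49 ± 0.45 SE), with replicate 2 close to the others. Mmp25, a membrane-bound metalloproteinase of neutrophils, rose from 0.881 to 2.25 CPM to 52 to 67.8 CPM. Itgam, the CD11b integrin chain stored in these granules, rose from 203.2, 375.7 and 328.2 CPM to 2630, 1432 and 2766 CPM. Lysozyme (Lyz2), already the gene with the highest level per length at day 4 (11735 RPKM, the CPM per kilobase of gene length), rose by a log2 fold change of 0.97 ± 0.20 SE.

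The summed level of the list was 17607, 25107 and 22948 CPM at day 4 and 163339, 95171 and 144262 CPM at day 6. This was 1.82% to 2.56% of all counts at day 4 and 12%, 8.05% and 10.8% at day 6. Per length, S100a9 and S100a8 led the day 6 levels at 83573 and 45292 RPKM, ahead of Lyz2 (22995 RPKM) and Ngp (22820.5 RPKM). In these bulk samples more cells of a type and more RNA per cell cannot be told apart.

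The upstream windows of 4 granule genes, the first 3 of which lie on chromosome 9, are printed because these genes rose together with PU.1. Each window holds the 250 bases before the transcription start on GRCm38.p6, from RefSeq, on the gene's strand. Capitals mark 2 short motifs searched on both strands, the PU.1 core GAGGAA and the C/EBP pattern TTNNGCAA, which do not overlap in these windows. The windows are chr9:111019042-111019291 (plus strand) for Ltf, chr9:110419558-110419807 (plus) for Ngp, chr9:109849457-109849706 (minus) for Camp and chr2:32387740-32387989 (minus) for Lcn2.
Ltf: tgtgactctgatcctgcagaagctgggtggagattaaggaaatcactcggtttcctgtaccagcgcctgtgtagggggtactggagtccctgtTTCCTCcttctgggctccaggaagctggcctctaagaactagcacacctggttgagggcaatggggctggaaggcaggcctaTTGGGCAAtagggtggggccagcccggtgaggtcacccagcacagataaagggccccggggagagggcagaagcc
Ngp: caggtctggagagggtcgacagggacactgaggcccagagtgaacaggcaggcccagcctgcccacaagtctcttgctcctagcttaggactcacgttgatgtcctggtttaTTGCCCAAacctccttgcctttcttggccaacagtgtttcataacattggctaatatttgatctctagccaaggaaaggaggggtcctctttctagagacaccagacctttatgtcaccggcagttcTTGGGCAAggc
Camp: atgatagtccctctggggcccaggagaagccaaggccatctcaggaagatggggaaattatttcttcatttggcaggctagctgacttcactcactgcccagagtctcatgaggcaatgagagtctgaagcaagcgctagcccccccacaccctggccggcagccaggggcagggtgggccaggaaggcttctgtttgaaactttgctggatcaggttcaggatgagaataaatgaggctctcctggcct
Lcn2: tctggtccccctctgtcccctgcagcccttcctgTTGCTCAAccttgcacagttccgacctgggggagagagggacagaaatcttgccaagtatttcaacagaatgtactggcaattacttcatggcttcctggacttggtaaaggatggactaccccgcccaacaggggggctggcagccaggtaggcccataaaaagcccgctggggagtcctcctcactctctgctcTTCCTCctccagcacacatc
Ltf holds the PU.1 core at bases 157 to 152 before the start, read on the opposite strand, and the C/EBP pattern at bases 75 to 68. Ngp holds the C/EBP pattern at bases 138 to 131, on the opposite strand, and again at bases 11 to 4. Lcn2 holds the C/EBP pattern at bases 216 to 209 and the PU.1 core at bases 20 to 15, both on the opposite strand. The Camp window holds neither string of letters. RefSeq windows were matched for 29 of the 36 granule genes called higher (30 windows), of which 18 (60%) hold the PU.1 core and 9 (30%) the C/EBP pattern. Over all 32851 windows of the table the shares are 23.3% and 9.56%, and over the windows of genes tested 22.6% and 7.76%. Windows of all genes called higher at day 6 hold them in 24.8% and 7.86%, and of all genes called lower in 22.3% and 8.88%. The shares over all rising genes thus lay near those over all genes tested. The granule list was chosen with earlier results known, and a link between its shares and the rise was not tested. Windows of genes gained by day 4 and lower at day 6 hold them in 25.6% and 9.5%. A match is a description of letters and not a binding site, and granule genes that are close paralogs share upstream sequence.

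Receptors and effector genes of mature neutrophils rose with the granule genes. Of 48 tested members of that list 37 rose and 2 fell (median log2 fold change 1.67), and 33 and 7 with library totals. Fpr2 and Fpr1, neighbouring receptors for formyl peptides of bacteria, stood near the counting floor at day 4. Fpr2 had 3.45, 1.75 and 1.47 CPM at day 4 and 249.1, 235 and 245.8 CPM at day 6 (6.77 ± 0.25 SE, adjusted p = 3.07e-08). Fpr1 had 1.5, 2.92 and 3.52 CPM and then 127.3, 119.1 and 130 CPM (5.55 ± 0.32 SE). The day 6 libraries of both receptors lay close together, replicate 2 included. The chemokine receptor Cxcr2, which draws neutrophils to CXC ligands, rose from 6.6, 12.1 and 9.83 CPM to 315.6, 242.9 and 301.8 CPM. C5ar1, the receptor of complement C5a and a member of the adhesion and chemotaxis list, rose from 3.75, 14.4 and 8.22 CPM to 241.4, 149.3 and 240.1 CPM. S100a8 and S100a9, the calprotectin subunits of neutrophil cytosol, rose by log2 fold changes of 4.33 ± 0.54 and 5.07 ± 0.64 SE. S100a9 reached 51176, 22982 and 48193 CPM from 773.4, 1804 and 1061 CPM. Csf3r, the receptor of granulocyte colony-stimulating factor, rose less, from 360.9 to 395.8 CPM to 550.2 to 866.5 CPM (0.95 ± 0.14 SE). The IL-1 decoy receptor Il1r2 and the IL-1 receptor antagonist Il1rn rose by 3.62 ± 0.15 and 4.12 ± 0.29 SE. The members that fell were Ifitm1, a membrane protein of interferon responses (8.66 to 27 CPM, then 4.88 to 5.63 CPM), and Selplg, the selectin ligand PSGL-1 (190.1 to 225.8 CPM, then 107.8 to 130.7 CPM).

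**Figure D2:**
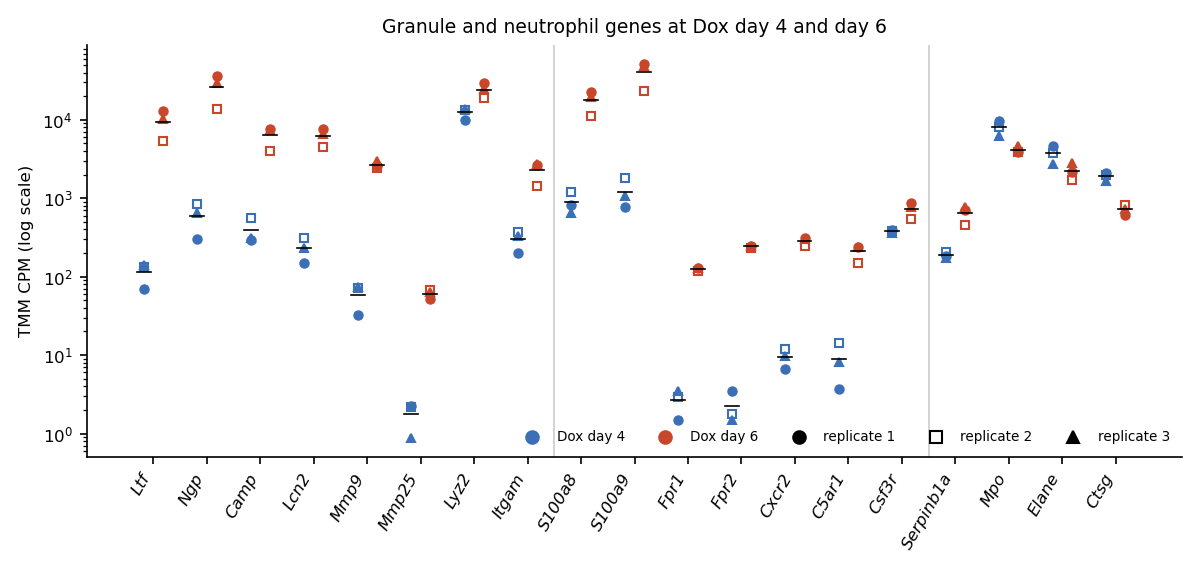
TMM CPM (log axis) of granule genes, neutrophil genes and primary granule genes, separated by grey lines, in each day 4 library (blue) and day 6 library (red), with a black bar at each mean. Replicate 2 is the open square. Day 6 libraries lie above day 4 libraries for the genes up to Serpinb1a and below them for Mpo and Ctsg, while the days overlap for Elane.

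Primary granule genes went the other way. Of 16 members 9 fell and 4 rose (median log2 fold change -0.48). Mpo, the myeloperoxidase, had 9670, 8207 and 6155 CPM at day 4 and 3930.7, 3918.1 and 4660.5 CPM at day 6, with no overlap (-0.94 ± 0.15 SE, adjusted p = 0.000341). Ctsg, cathepsin G, went from 1677 to 2106 CPM to 618.9 to 828.1 CPM, and Cst7, the inhibitor cystatin F, from 202.3 to 278.2 CPM to 87 to 107 CPM. Elane, neutrophil elastase, was called lower (-0.76 ± 0.20 SE), although the highest day 6 library (2772 CPM) exceeded the lowest day 4 library (2694 CPM). Serpinb1a, which inhibits elastase, and the serine protease Prss57 were among the 4 that rose, to 460.8 to 768.2 CPM from 171.7 to 207.8 CPM and to 32.8 to 44.9 CPM from 9.83 to 17.5 CPM. Summed primary granule levels were 23353, 20856 and 16135 CPM at day 4 and 12382, 12052 and 14546 CPM at day 6.

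Genes for the oxidative burst, lipid mediators and movement rose. All NADPH oxidase calls were higher, 8 of 10 members (0 lower, median 1.27), and 6 of 10 were higher with 2 lower when scaled by library totals. Cybb, the catalytic gp91phox subunit, went from 963, 1047 and 697.1 CPM to 4170, 2635 and 4616 CPM. Its cytosolic partners Ncf1 and Ncf4 rose by 1.89 ± 0.16 and 1.63 ± 0.16 SE, and Hvcn1, the proton channel that sustains the burst, by 1.41 ± 0.23 SE. Leukotriene genes moved with them: 7 of 15 eicosanoid genes rose and 1 fell, Alox15, described below (6 and 3 with library totals). Alox5, the 5-lipoxygenase, went from 65.1, 109.1 and 82.3 CPM to 627, 404.6 and 568.5 CPM, and Lta4h, which makes leukotriene B4, from 616.8 to 765 CPM to 1086 to 2033 CPM. Ltb4r1, the receptor of leukotriene B4, and Ptges, a prostaglandin E synthase, rose by 2.44 ± 0.34 and 2.20 ± 0.22 SE. Of 44 actin and migration genes 36 rose and 2 fell (22 and 6 with library totals). Vasp, which promotes actin filament growth, went from 206.3, 250.2 and 230.2 CPM to 1070, 759.9 and 979.3 CPM, and the neutrophil GTPase Rac2 from 687.1 to 870.1 CPM to 1513 to 2241 CPM. Gsn, the filament-severing gelsolin, rose by 1.43 ± 0.16 SE. The 2 that fell, Tmsb10 (thymosin that binds actin monomers, 114.9 to 122 CPM, then 25.4 to 58.7 CPM) and Capg (filament capping, 281.4 to 365.1 CPM, then 205.6 to 253 CPM), had both been gained by day 4.

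Genes of the nuclear envelope changed in both directions, 7 of 20 higher and 4 lower, and 4 higher and 12 lower with library totals. Syne1, the giant nesprin that ties the nucleus to the cytoskeleton, went from 132.9, 252.7 and 172.9 CPM to 1792, 885.9 and 1968 CPM (3.06 ± 0.34 SE). Its partner in the inner membrane, Sun2, went from 520.2 to 741.7 CPM to 1126 to 2359 CPM. Hmgn2, a nucleosome-binding protein, rose by 1.41 ± 0.17 SE. Syne3, another nesprin, fell from 100.1, 112 and 128.6 CPM to 73.6, 65.6 and 93.7 CPM (-0.55 ± 0.14 SE). Lmna, which encodes A-type lamins, was called lower (12.6, 21.4 and 25.1 CPM, then 4.27, 9.16 and 3.12 CPM, adjusted p = 0.04). Its call was lost without day 4 replicates 2 or 3 (0.0817 and 0.102) and without day 6 replicates 1 or 3 (0.125 and 0.129).

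Myeloid transcription factors changed in both directions. Of 39 tested 11 rose and 6 fell (10 and 15 with library totals). Cebpe, the C/EBP factor required for secondary granules (Entrez 110794, chromosome 14, 54710363 to 54712174), had 68.6, 112.3 and 63.6 CPM at day 4 and 644.9, 327.6 and 588.6 CPM at day 6 (2.67 ± 0.33 SE, adjusted p = 0.000129). Irf8, a factor of monocyte and dendritic cell fate (Entrez 15900, chromosome 8, 120736358 to 120756694), had 657.8, 493.4 and 651.4 CPM at day 4 and 102.1, 234.7 and 99.6 CPM at day 6 (-2.04 ± 0.36 SE, adjusted p = 0.00112). In both genes the days were apart, and day 6 replicate 2 was the library nearest to day 4. Klf4, a factor of monocyte differentiation, fell from 194.9, 193.3 and 246.5 CPM to 48.2, 121.5 and 51.5 CPM (-1.51 ± 0.39 SE). Cebpa, the C/EBP factor of early granulocyte commitment, fell by 0.97 on the log2 scale. Cebpb, which acts in monocytes and emergency granulopoiesis, stood at 117.6 to 133.8 CPM and then 59.5 to 91.9 CPM, and its fall was lost without day 6 replicate 1 (adjusted p = 0.0533). Mxd1, which competes with MYC for MAX, rose from 54.6 to 72.6 CPM to 448.9 to 574 CPM, and Id2 and Bcl6 rose by 2.19 ± 0.19 and 1.66 ± 0.43 SE. Gfi1, a transcriptional repressor that acts in granulocyte development, had 130.5, 134.1 and 89 CPM and then 215.8, 99.3 and 198 CPM (adjusted p = 0.147).

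Genes of the progenitor and leukemic state did not move as a group, 5 of 24 higher and 4 lower (3 and 12 with library totals). Myc went from 128.6, 127.4 and 76.8 CPM to 26, 50.3 and 28.9 CPM (-1.65 ± 0.26 SE), and Adgrg1, an adhesion receptor of stem cells, from 18.2 to 23.9 CPM to 5.54 to 6.43 CPM. Kit, whose ligand is stem cell factor, had 176.8, 130.9 and 109.1 CPM and then 248.2, 91.9 and 202.8 CPM (adjusted p = 0.31). Myb, a factor of immature myeloid cells, had 242 to 367.6 CPM and then 185.6 to 287.6 CPM (adjusted p = 0.25). The ETS factors Erg and Fli1 and the chromatin organizer Satb1 rose. Erg went from 3.08 to 6.75 CPM to 76.3, 24.1 and 55.4 CPM, and Fli1 and Satb1 rose by 0.84 ± 0.12 and 2.64 ± 0.28 SE.

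Part of the day 4 state was gained and then lost. At day 4, 22.1% of genes were higher and 20.2% lower than in untreated cells, and at day 6, 35.0% were higher and 32.9% lower. In 392 genes, 3.25% of those tested, a gain by day 4 was followed by a lower level at day 6, by at least 2-fold in both steps in 144. At day 6, 136 of the 392 were still higher than in untreated cells, 30 were lower and 226 were not called. Both steps use the day 4 libraries, so a day 4 value that is high by error enters both, and the count is a description. The lowest day 4 library was replicate 1 in 212 of these genes, replicate 2 in 133 and replicate 3 in 47. The count was 674 without day 6 replicate 2 and 254 without day 4 replicate 3.

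Monocyte, lysosome and Fc receptor genes were among them. Of 44 monocyte and macrophage genes 32 had risen and 1 had fallen by day 4. From day 4 to day 6, 10 rose and 12 fell (6 and 17 with library totals), and 8 were gained and then lower. Over all genes tested 23.6% rose and 22.6% fell in that step, and 392 of the 2667 gained by day 4 were then lower. Lpl, lipoprotein lipase (Entrez 16956, chromosome 8, 68880555 to 68906932), had 13.4 to 16.7 CPM untreated, 516.6, 696 and 578 CPM at day 4 and 123.5, 185 and 156.2 CPM at day 6. Its log2 fold change was 5.36 from untreated to day 4 and -1.94 ± 0.21 SE from day 4 to day 6 (adjusted p = 3.11e-05), and day 6 remained above untreated (3.41). S100a4, a calcium-binding protein of migrating cells, had 357.6, 465.1 and 627.9 CPM at day 4 and 127.1, 295.6 and 130 CPM at day 6. The receptors that define monocytes overlapped between the days. Csf1r, the CSF1 receptor, had 698.5, 837.8 and 913.3 CPM and then 283.6, 727 and 302.8 CPM (adjusted p = 0.0675). Ccr2, the receptor for CCL2, had 521, 638.5 and 740.8 CPM and then 264, 772.6 and 327.2 CPM (adjusted p = 0.277). Fcgr1, the high-affinity IgG receptor, had 224.3 to 269.7 CPM and then 114.9, 513.9 and 130.4 CPM (adjusted p = 0.947). In all 3, day 6 replicate 2 was within or above the day 4 range and the other day 6 libraries were below it. Cd163, the hemoglobin scavenger receptor of macrophages, fell from 14.4 to 21.4 CPM to 2.13 to 4.66 CPM without having been gained. C1qa and C1qc, macrophage complement subunits, were called higher, with 78 and 89.7 CPM in day 6 replicate 2 against 9.18 to 11.5 CPM in the other day 6 libraries. The summed level of all 50 members was 19616, 21659 and 23134 CPM at day 4 and 10037, 21481 and 10680 CPM at day 6. Without day 6 replicate 2, 8 of the 44 rose and 24 fell. The number that fell was 6 to 7 without day 4 replicates 2 or 3 or day 6 replicates 1 or 3.

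Of 43 lysosome genes 35 had risen by day 4, and from day 4 to day 6 10 rose and 14 fell, 8 of them after a gain. Over all genes tested 23.6% rose and 22.6% fell in that step. The number that fell was 23 without day 6 replicate 2 and 9 without replicates 1 or 3, and 2 rose and 28 fell with library totals. Psap, the precursor of the saposins, had 1553 CPM untreated (mean), 4765, 5423 and 6329 CPM at day 4 and 2489, 3722 and 2507 CPM at day 6 (-0.92 ± 0.20 SE). Mitf, a regulator of lysosome genes, fell by 0.97 on the log2 scale after a gain of 0.65. Neu1, a sialidase, and the granule and lysosome tetraspanin Cd63 rose, by 0.88 ± 0.18 and 0.85 ± 0.21 SE. Cd63 lost the call with library totals (0.43, adjusted p = 0.0617).

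Of 30 Toll-like and Fc receptor genes 27 had risen by day 4, and in the next step 9 rose and 6 fell, 5 of them after a gain. With library totals 6 rose and 14 fell, and without day 6 replicate 2 the numbers were 8 and 11. Over all genes tested the shares under TMM factors were 23.6% higher and 22.6% lower. Fcgrt, the neonatal Fc receptor that recycles IgG, had 108.8, 127.1 and 131.8 CPM at day 4 and 18.6, 46 and 19.5 CPM at day 6. Untreated cells had 22.1 to 47.7 CPM, and day 6 was not called different from them (-0.14, adjusted p = 0.765). Cd180, a Toll-like homologue, fell by 1.07 and remained above untreated (2.78). Fcgr4, an activating IgG receptor, and Tlr13, the sensor of bacterial ribosomal RNA, rose further, by 1.69 ± 0.26 and 1.16 ± 0.23 SE, as did the adaptor Tirap (1.34 ± 0.13 SE). Of 32 adhesion and chemotaxis receptors 17 rose and 7 fell, 5 of them after a gain, and 11 fell without day 6 replicate 2. Itgb7, an integrin chain of gut homing, and P2rx7, the ATP-gated channel, fell by 1.17 and 1.31 on the log2 scale after gains of 1.85 and 2.56.

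In class II presentation 4 of 14 genes rose and 4 fell. H2-DMa, which loads peptides onto class II molecules, had 15.4 CPM untreated (mean), 95, 87.8 and 81 CPM at day 4 and 38.2, 38.1 and 35.3 CPM at day 6, a fall with no overlap (-1.24 ± 0.11 SE). H2-Eb1, a class II chain, rose from 2.05 to 6.27 CPM to 7.88 to 32.4 CPM.

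Further genes that were gained by day 4 and then fell were spread over several lists or none. Fgfr2, a fibroblast growth factor receptor, had 10.1, 21.1 and 21.1 CPM at day 4 and 1.92, 0.161 and 1.37 CPM at day 6. Pcdh18, a protocadherin, had 31.6 to 49.2 CPM and then 3.2 to 7.88 CPM, and Stxbp6, a syntaxin-binding protein, 25.7 to 36.1 CPM and then 4.27 to 6.44 CPM. Il6st, the gp130 chain shared by IL-6 family receptors, had 144.7, 151 and 178.3 CPM at day 4 and 21.3, 74.3 and 21.1 CPM at day 6, near its untreated mean of 39.9 CPM. Kbtbd11, Chn2 and Gprc5c fell by 2.69, 2.31 and 2.19 on the log2 scale after gains of 2.59, 3.28 and 4.05. St6galnac5, a sialyltransferase, rested on the spread of day 4 (5.25, 18.8 and 47.7 CPM). Its call was lost without day 4 replicate 3 (adjusted p = 0.0945) and without day 6 replicates 1 or 3 (0.0794 and 0.0805).

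**Figure D3:**
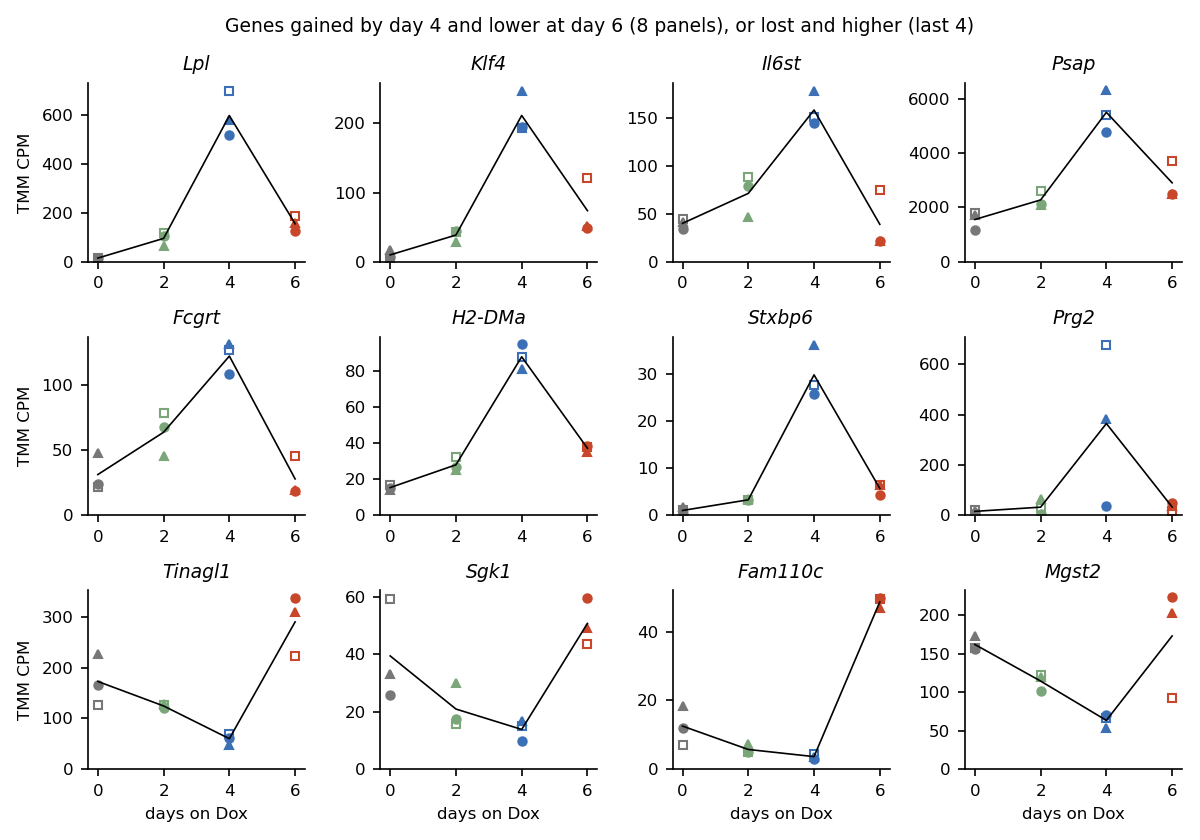
TMM CPM (linear axes from 0) of 8 genes gained by day 4 and lower at day 6 (Lpl to Prg2) and 4 genes lost by day 4 and higher at day 6 (Tinagl1 to Mgst2), against days on Dox with 0 for untreated. Points are libraries (circle, open square and triangle for replicates 1, 2 and 3) and lines join the means; Prg2 is high in only the day 4 replicates 2 and 3.

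Several eosinophil granule genes fell, and these falls rested on part of the day 4 libraries. Prg2, the major basic protein (Entrez 19074, chromosome 2, 84980461 to 84983632), had 35.3, 676.2 and 383 CPM at day 4 and 48, 16.4 and 35.3 CPM at day 6. Day 4 replicate 1 lay within the day 6 range, and the other day 4 libraries lay far above it. Epx, eosinophil peroxidase, had 8.55, 137.8 and 61.8 CPM and then 2.73 to 3.84 CPM. Prg3 and Ear1, a second basic protein and an eosinophil ribonuclease, had 2.25 and 2.85 CPM in day 4 replicate 1, 27 to 56.6 and 16 to 37.8 CPM in the others, and 1.77 to 3.32 and 0.321 to 5.08 CPM at day 6. Alox15, a 15-lipoxygenase of eosinophils and macrophages, followed the same order (8.55, 160.2 and 93.5 CPM, then 5.79 to 27.7 CPM). The eosinophil ribonuclease gene Ear2 and the surface receptor Siglecf rose instead, from 4.8 to 18.2 CPM to 72.7 to 113.6 CPM and from 2.5 to 5.39 CPM to 6.27 to 21.8 CPM. Of 8 tested eosinophil markers 4 fell and 2 rose, and the summed level of the 9 found was 61.7, 1071 and 567 CPM at day 4 and 216.5, 110.3 and 200.5 CPM at day 6. Ear genes are close paralogs, so reads may be shared between Ear1 and Ear2. Without day 4 replicate 1, 5 markers fell, and without day 4 replicate 2 or day 6 replicate 2, 0 fell. The number was 2 without day 4 replicate 3 and 1 without day 6 replicates 1 or 3. Without day 4 replicate 2 the adjusted p was 0.0513 for Prg2, 0.0742 for Epx, 0.12 for Prg3, 0.151 for Ear1 and 0.183 for Alox15, and without day 6 replicate 2 it was 0.0743, 0.106, 0.114, 0.115 and 0.157. Omission of day 4 replicate 3 or day 6 replicates 1 or 3 also ended some of these calls (adjusted p = 0.0512 to 0.0934).

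In 177 genes, 1.47% of those tested, a loss by day 4 was followed by a higher level at day 6, by at least 2-fold in both steps in 26. Of the 177, 42 were then above untreated, 18 below and 117 not called. The count was 373 without day 6 replicate 2, 111 without day 4 replicate 2 and 84 without day 4 replicate 3. Fam110c, a centrosome-associated protein, had 12.5 CPM untreated (mean), 3, 4.37 and 3.52 CPM at day 4 and 49.7, 49.5 and 46.9 CPM at day 6 (3.74 ± 0.31 SE). Tinagl1, a matrix protein, had 62.3, 69.4 and 48.4 CPM at day 4 and 338.2, 223.7 and 310 CPM at day 6, against 173 CPM untreated. Sgk1, a kinase induced by glucocorticoids and serum, Lhfpl2 and the phosphatase Ptpn3 rose by 1.87, 1.61 and 1.48 and were then not called different from untreated cells (adjusted p = 0.329, 0.777 and 0.978). The autophagy receptor Optn and the glutathione transferase Mgst2 rose by 1.53 and 1.45, with day 6 replicate 2 the lowest of its group in both (23.9 and 93.1 CPM). Adamtsl3, an ADAMTS-like matrix protein, rose from 1.6 to 2.25 CPM to 10.3 to 10.7 CPM.

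The rest of the 15 largest rises were mostly genes near the floor at day 4. Slc6a12, a betaine and GABA transporter, had 1 count in all 3 day 4 libraries together and 22.4, 1.93 and 15.8 CPM at day 6. Cldn1, a tight junction claudin, went from 0.734 to 2.77 CPM to 75.1 to 102.8 CPM, Inhba, the activin A subunit, from 1.17 to 3.15 CPM to 71.2 to 127.1 CPM, and Ankrd22 from 0.9 to 3.5 CPM to 58.5 to 118.1 CPM. Plbd1, a phospholipase B-like granule protein, had the highest level of these, with 1168, 727.6 and 949.2 CPM at day 6 against 11.9 to 31.6 CPM. AA467197, Farp1, Krt83 and Col5a1 had 7, 16, 10 and 9 counts in total at day 4 and day 6 libraries of 11.1 to 47.6 CPM.

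The largest falls included genes of stroma and signalling that untreated cells already expressed. Tns1, which links integrins to actin, went from 237.4, 171.6 and 191 CPM to 9.6, 14.3 and 12.7 CPM (-4.02 ± 0.24 SE). Pdgfrb, a PDGF receptor, went from 85.4, 55 and 54.6 CPM to 5.33, 7.72 and 3.9 CPM, and Cxcl12, the chemokine that retains cells in marrow, from 60.2, 31.5 and 51.8 CPM to 2.93 to 4.5 CPM. Igfbp7, Angptl2, Cited4 and Tmem178 fell by 3.61, 3.57, 3.37 and 3.36 on the log2 scale. Cp (ceruloplasmin) went from 42 to 65.6 CPM to 1.49 to 6.91 CPM, and Cux2 and Lipn had log2 fold changes of -3.37 and -3.30. Ccl24, an eosinophil-attracting chemokine, and Tppp3, a tubulin-binding protein, had 10.7 to 13.1 and 17.4 to 42 CPM at day 4 and 0.213 to 1.45 and 1.37 to 5.3 CPM at day 6. All 4 tested endothelial and stromal markers fell (0 rose), Cxcl12 and Pdgfrb among them, and the summed level of the 16 found was 140 to 187.4 CPM at day 4 and 25.6 to 34.1 CPM at day 6, against 232.5 to 344.2 CPM untreated. Their part in other results was not tested. Other marrow lineages stayed low: summed B cell markers were 6.02 to 10.1 CPM at day 4 and 7.68, 30.2 and 8.2 CPM at day 6, T and NK cell markers 29.7 to 56.7 and 44.6 to 84.7 CPM, and erythroid markers 113.3 to 143 and 67.2 to 177.7 CPM. Of 4 tested T and NK markers 1 fell and 0 rose (median log2 fold change 1.12), and 3 rose without day 6 replicate 2. The marker that fell was Klrk1, an NK cell receptor gene (24.7 to 42.6 CPM, then 5.12 to 14.3 CPM). Of 5 tested mast cell and basophil markers 1 rose and 1 fell (median -1.27). The marker that rose was Hdc, the histamine-forming enzyme (51.8 to 86.8 CPM, then 113.5 to 199.3 CPM). Hdc is also a member of the mature neutrophil list.

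Interferon response genes rose further. Of 46 members 24 rose and 2 fell (median 0.82, and 15 and 3 with library totals), after 38 had risen by day 4, and 18 rose without day 6 replicate 2. Rsad2, the antiviral viperin, had 88.8, 97.8 and 93.5 CPM at day 4 and 455.7, 824.4 and 450 CPM at day 6. Ifit1 and Ifit3b, which bind foreign RNA or its partners, rose by 2.58 ± 0.44 and 3.15 ± 0.50 SE, and Oas2, an oligoadenylate synthetase, from 63.2 to 77.6 CPM to 351.8 to 414.4 CPM. Here day 6 replicate 2 was the highest library: the summed list was 7478 to 8328 CPM at day 4 and 13276, 20291 and 12987 CPM at day 6. The GTPases Iigp1 and Gbp3 fell, from 206.6, 138.8 and 69.1 CPM to 25.6, 38.7 and 52.7 CPM and from 65.8 to 85.1 CPM to 18.6 to 33.6 CPM. The call of Iigp1 was lost without day 4 replicate 1 (adjusted p = 0.0748) and without day 6 replicates 1 or 2 (0.0821 and 0.0726). In class I presentation 1 of 19 genes rose, B2m, the light chain of class I molecules, from 2887 to 3304 CPM to 3818 to 4413 CPM (0.45 ± 0.11 SE, and 0.05 with library totals, adjusted p = 0.694), and 3 fell (8 with library totals). Without day 6 replicate 2, 3 rose, and without day 6 replicates 1 or 3, 1 fell.

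Among 22 cytokines and chemokines 7 rose and 3 fell, and 4 of the 22 fell without day 6 replicate 2. Tnfsf13b, the B cell survival factor BAFF, went from 20.8 to 24.3 CPM to 192.6, 66.5 and 185.5 CPM, Tnf from 5.28 to 5.85 CPM to 15.2 to 27.1 CPM, and the chemokine Ccl3 fell from 16 to 24.2 CPM to 7.22 to 10.1 CPM. Of 32 cytokine and growth factor receptors 11 rose and 6 fell (5 and 13 with library totals). Il18rap, a chain of the IL-18 receptor, went from 26.9 to 41.4 CPM to 173.6 to 303 CPM, and Igf1r from 115.2 to 135.3 CPM to 215.5 to 411.5 CPM. Csf2ra, the GM-CSF receptor chain, rose by 0.59 ± 0.11 SE (0.18 with library totals, adjusted p = 0.159), and Ghr, the growth hormone receptor, fell from 37.6 to 39.5 CPM to 10.3 to 14.8 CPM.

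Genes for making ribosomes and building blocks fell together. Of 44 ribosome biogenesis genes 38 fell and 0 rose (median -0.71), and of 48 ribosomal protein genes 32 fell and 0 rose (median -0.48). Neither list had a member called higher by DESeq2 or limma voom or with an unadjusted p under 0.05 in that direction. Srm, spermidine synthase, is a polyamine enzyme that was placed in the ribosome biogenesis list and in the polyamine list below. It had 139.2, 102.8 and 93.8 CPM at day 4 and 28.4, 64.9 and 33 CPM at day 6 (-1.40 ± 0.26 SE). Gnl3, nucleostemin, had 64.5, 54.8 and 43.6 CPM and then 16.4, 29.4 and 23 CPM. Day 6 replicate 2 was the highest day 6 library in both and still below day 4. Rplp1 and Rpl14, proteins of the large ribosomal subunit whose families have many pseudogenes, fell by 0.72 and 0.69 on the log2 scale. Of 33 translation factor and tRNA synthetase genes 19 fell and 1 rose (31 and 0 with library totals). Yars, the tyrosyl-tRNA synthetase, had 72.5 to 77.1 CPM and then 38 to 53.4 CPM. The one that rose, Dars (aspartyl-tRNA synthetase, 0.48 ± 0.13 SE), was not called without day 4 replicate 3 or day 6 replicate 1 (adjusted p = 0.0509 and 0.0524) and stood at 0.06 with library totals. Of 32 genes for nucleotide, folate and polyamine synthesis 22 fell and 0 rose. Phgdh, which opens serine synthesis, had 90.8, 57.9 and 76.3 CPM and then 8.96, 33.6 and 11.3 CPM (-2.02 ± 0.38 SE), and Psat1, the next enzyme, 113.3 to 123 CPM and then 26.4, 79.6 and 37.9 CPM.

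Mitochondrial and chaperone genes followed. Of 30 mitochondrial ribosomal proteins 13 fell and 0 rose (30 with library totals, 6 without day 6 replicates 1 or 3, 20 without replicate 2), with Mrpl12 and Mrps2 lower by 0.93 and 0.74 on the log2 scale. Of 33 nuclear-encoded respiratory chain genes 14 fell and 0 rose, and 30 fell with library totals. The number was 20 without day 6 replicate 2, 3 without day 6 replicates 1 or 3 and 6 to 8 without any 1 of the day 4 libraries. Of 13 transcripts of the mitochondrial genome 11 fell and 0 rose (median -0.61), with ND1 at 1234 to 1364 CPM and then 805.9 to 855.4 CPM and ND2 at 852.9 to 960.2 CPM and then 538.9 to 555.8 CPM. Of 21 tricarboxylic acid cycle genes 11 fell and 2 rose (18 and 0 with library totals), with 5 lower without day 6 replicates 1 or 3 and 7 without day 4 replicates 1 or 3. Idh2, the mitochondrial NADP-dependent isocitrate dehydrogenase, had 139 to 158.9 CPM and then 58, 94 and 55.4 CPM, and Pdk1, which inhibits pyruvate dehydrogenase, 81.1 to 125.7 CPM and then 36.1 to 50.3 CPM. Dlst, a subunit of the oxoglutarate dehydrogenase, was called higher (0.42 ± 0.09 SE) and stood at 0.02 with library totals. Of 25 heat shock genes 14 fell and 1 rose, with 7 lower without day 4 replicate 1 or day 6 replicate 1 and 5 without day 6 replicate 3. Hsp90ab1, the constitutive HSP90, had 1813 to 2135 CPM and then 871.4, 1522 and 911.3 CPM, and Hspd1, the mitochondrial chaperonin HSP60, fell by 0.77 on the log2 scale. Dnaja1, the gene that rose (0.41 ± 0.15 SE), was not called without any 1 of day 4 replicates 1 and 3 and day 6 replicates 1 and 2 (adjusted p = 0.0732 to 0.142) and stood at 0.01 with library totals.

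**Figure D4:**
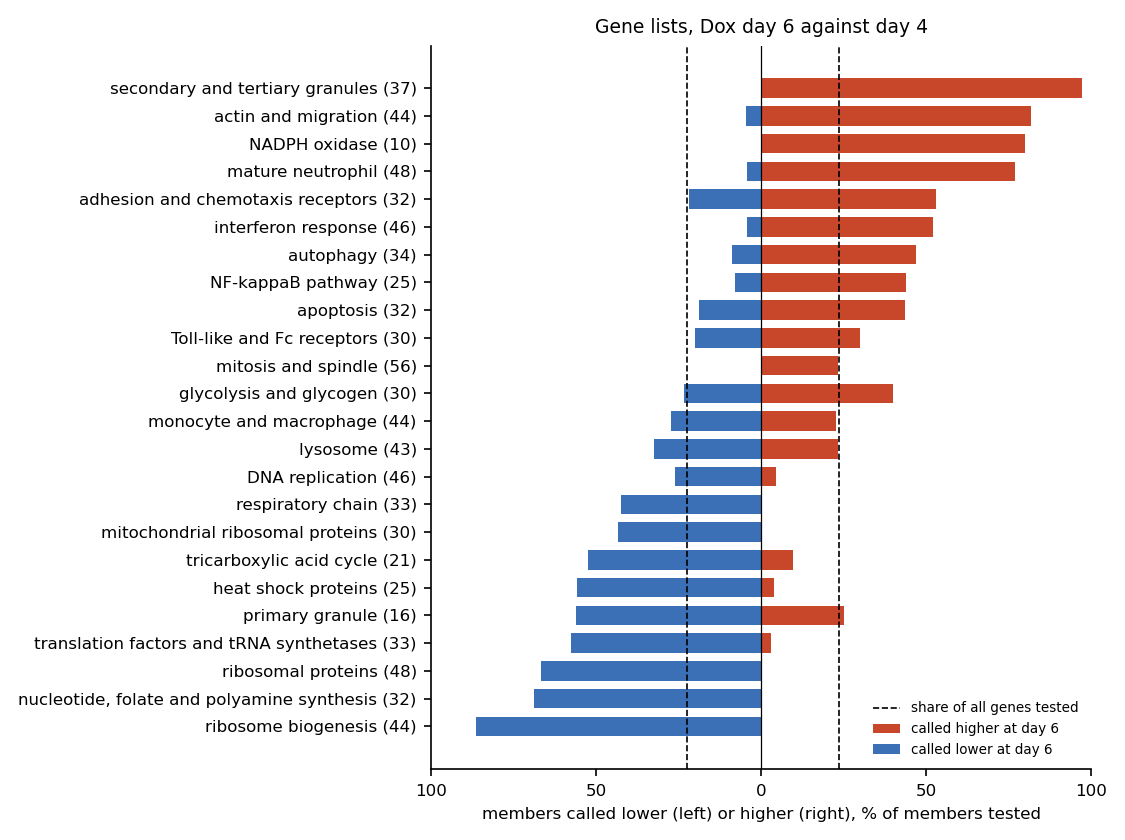
Share of tested members of 24 gene lists called higher (red, right) or lower (blue, left) at day 6 than at day 4, with the number tested in brackets and dashed lines at the shares over all genes tested (23.6% higher, 22.6% lower). Secondary granule genes (36 of 37 higher) and ribosome biogenesis genes (38 of 44 lower) stand at the ends.

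Carbohydrate genes changed in both directions. Of 30 glycolysis and glycogen genes 12 rose and 7 fell (8 and 11 with library totals). Slc2a3, the glucose transporter GLUT3, went from 17, 35.9 and 30.8 CPM to 675.6, 441 and 677.1 CPM (4.42 ± 0.27 SE), and Pygl, glycogen phosphorylase, from 431.6 to 494.1 CPM to 1224 to 1878 CPM. Pfkfb4, which makes an activator of phosphofructokinase, rose by 1.01 ± 0.14 SE, while the phosphofructokinase genes Pfkm and Pfkp fell, from 23.9 to 24.9 CPM to 7.03 to 9.97 CPM and from 289.7 to 348.3 CPM to 110.9 to 154.6 CPM. Of 28 sterol genes 10 fell and 1 rose (20 and 1 with library totals), with 6 lower without day 4 replicate 1 and 5 higher without day 6 replicate 2. Dhcr7, the last enzyme of cholesterol synthesis, had 58.9 to 60 CPM and then 22.6 to 24.4 CPM. Insig1, which restrains sterol synthesis, fell by 1.01, and Mylip, a ligase that removes the LDL receptor, was the one that rose (42.6 to 51.3 CPM, then 83.8 to 139.4 CPM).

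Of 24 iron and heme genes 6 rose and 7 fell (5 and 12 with library totals), and 11 fell without day 6 replicate 2 and 4 without day 4 replicate 1 or day 6 replicate 3. Under TMM factors 23.6% of all genes tested rose and 22.6% fell. Slc40a1, the iron exporter ferroportin, went from 65.2 to 96.1 CPM to 420.5, 213 and 417.8 CPM, and Steap3, an endosomal ferrireductase, from 45.8 to 54 CPM to 15.2 to 28.6 CPM. Antioxidant genes were mixed, 11 of 33 higher and 9 lower (9 and 15 with library totals). The cystine transporter Slc7a11 and the oxidant-response factor Nfe2l2 rose by 1.95 ± 0.31 and 0.93 ± 0.14 SE, and Gstm1, whose family members share sequence, fell from 104.1 to 110.1 CPM to 40.2 to 53.1 CPM. Among 28 endoplasmic reticulum genes 5 rose and 3 fell (2 and 14 with library totals). Without day 6 replicate 2, 15 fell, and without day 4 replicate 3 or day 6 replicates 1 or 3, 1 fell. The number that rose was 3 without day 4 replicates 1 or 2 or day 6 replicate 3. Ero1a, which oxidizes folding proteins, went from 133.4 to 142.6 CPM to 336.3, 191.9 and 326.8 CPM.

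The cell cycle lists moved with the scaling. Of 56 mitosis and spindle genes 13 rose and 0 fell (median 0.26), but 2 rose and 1 fell with upper-quartile factors and 1 rose and 16 fell with library totals. Over all genes tested 23.6% rose and 22.6% fell under TMM factors, so the share of mitosis genes that rose was near that of all genes. Without day 6 replicate 2, 40 rose, and without any other 1 of the 6 libraries 1 to 6 rose. Spc25, a kinetochore component, had 52.2 to 53.9 CPM and then 120.5, 65.9 and 102.5 CPM (0.85 ± 0.18 SE). Mki67, the proliferation antigen, had 1001, 943 and 1190 CPM and then 1615, 1049 and 1793 CPM (adjusted p = 0.033). Its call was lost without day 4 replicates 1 or 2 (0.0959 and 0.111) and without day 6 replicates 1 or 3 (0.103 and 0.15), and it stood at 0.09 with library totals. Cdk1, the mitotic kinase, had 128.6 to 132.4 CPM and then 127.3 to 177.9 CPM (adjusted p = 0.0912). Of 46 DNA replication genes 12 fell and 2 rose, 23 fell and 2 rose with upper-quartile factors, and 43 fell and 0 rose with library totals. With TMM factors, there were 7 lower without day 4 replicate 1 and 4 higher without day 6 replicate 2. Ung and Pold2, of uracil removal and the lagging-strand polymerase, fell by 1.30 and 1.03 on the log2 scale, and Rrm2 and Slbp, of deoxynucleotide supply and histone messages, rose by 0.65 and 0.46 (0.23 and 0.06 with library totals). Mcm2, a helicase subunit, had 164.4 to 197.5 CPM and then 143.1 to 156.1 CPM (adjusted p = 0.0375). Its call was lost without day 4 replicates 1 or 2 (0.16 and 0.062) and without day 6 replicates 1 or 3 (0.111 and 0.0956). Of 36 cell cycle control genes 13 rose and 4 fell, with 8 higher without day 6 replicates 1 or 3, and 5 rose and 12 fell with library totals. Ccnd3, cyclin D3, went from 270.8 to 276.8 CPM to 494.2 to 722.1 CPM and Cdkn2d, the CDK4 inhibitor p19, from 114.2 to 128.4 CPM to 188.5 to 247.4 CPM. Cdk4, the partner of D cyclins, went from 212.9, 165.9 and 169.8 CPM to 68.7, 96.4 and 68.5 CPM, and Cdkn1a, the CDK inhibitor p21, from 62.4 to 75.4 CPM to 21.5 to 36.6 CPM.

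Survival, autophagy and signalling genes rose more often than they fell, and fell more often with library totals. Of 32 apoptosis genes 14 rose and 6 fell (4 and 12 with library totals). Gsdme, a gasdermin of pyroptosis, went from 8.55, 16 and 10.7 CPM to 170.2, 84.2 and 139.4 CPM (3.47 ± 0.30 SE), and Bcl2 from 32.1, 17.5 and 24.4 CPM to 4.27, 9.16 and 5.66 CPM (-1.92 ± 0.28 SE). Mcl1, a survival factor of neutrophils, rose by 0.46 ± 0.12 SE (0.07 with library totals, adjusted p = 0.642), and Mdm2 and Cflar by 0.94 and 0.76. Of 34 autophagy genes 16 rose and 3 fell (7 and 12 with library totals), with Wipi1, of autophagosome formation, and the mitophagy receptor Bnip3l higher by 1.69 and 1.02. Of 25 NF-kappaB genes 11 rose and 2 fell (4 and 6 with library totals), and 4 fell without day 6 replicate 2 and 1 without day 4 replicate 1 or day 6 replicate 3. Nfkbia, the inhibitor IkB-alpha, went from 30.6 to 41.8 CPM to 141, 93.5 and 140.6 CPM, and Nfkbiz, a related nuclear regulator, from 9.9 to 11.2 CPM to 21.1 to 26.4 CPM. Of 39 chromatin genes 12 rose and 3 fell (2 and 19 with library totals). Kdm6b, a histone demethylase, went from 45.5 to 54.2 CPM to 216.9, 123.4 and 217.7 CPM, and Dnmt3b, a DNA methyltransferase, fell by 1.11.

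Day 6 replicate 2 differed from the other day 6 libraries in several gene groups at once. Its secondary granule and mature neutrophil sums were the lowest of day 6, between those of day 4 and the other day 6 libraries. Its monocyte and lysosome sums were within the day 4 ranges, and its interferon sum was the highest of both days, as the plot of summed levels shows. Summed mature neutrophil levels were 94767, 50086 and 87562 CPM at day 6 against 9700 to 11659 CPM at day 4. With that library left out, 35 of the secondary granule genes and 40 of the mature neutrophil genes were called higher, and 41 of the ribosome biogenesis genes lower.

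**Figure D5:**
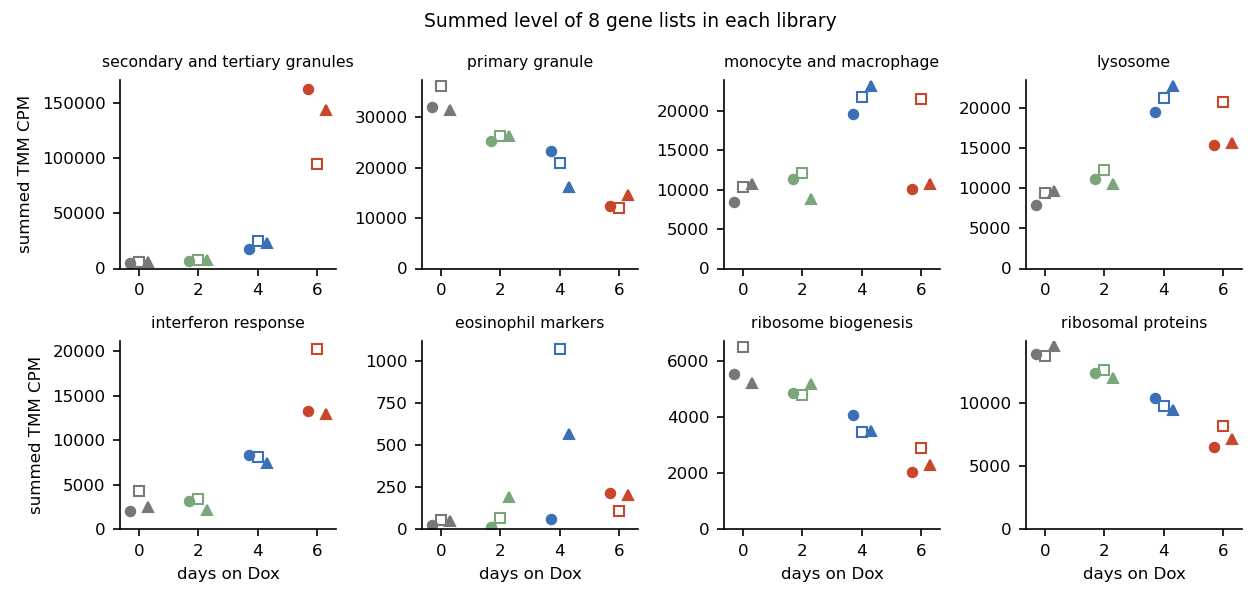
Summed TMM CPM of the members of 8 gene lists (linear axes from 0) against days on Dox, 0 for untreated, 1 point per library (circle, open square and triangle for replicates 1, 2 and 3). Day 6 replicate 2 (open square) is the lowest day 6 library for secondary granules (95171 CPM) and the highest for monocyte (21481 CPM), lysosome (20753 CPM) and interferon genes (20291 CPM).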

How the data were processed

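RNA-seq read counts per gene were deposited by the authors, 1 file per library, as whole numbers that were not normalized. Per the submitters' processing notes, the build was mm10 and the tools included featureCounts, CASAVA 1.8.2, limma 3.22.0 and edgeR 3.8.2; whether counting used strand is not given in the sources used here. In all, 27179 Entrez identifiers are listed. Of these, 25275 were named from the reference, and the 1904 without a name held 0.493% to 1.07% of the counts. Libraries held 4918920 to 7356166 counts.

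Genes were filtered with filterByExpr, scaled by TMM and tested with edgeR 4.0.16 (R 4.3.3) in 1 quasi-likelihood fit over all 12 libraries with group as the only term and Benjamini-Hochberg adjustment over 12057 genes. Alternatives used DESeq2 1.42.0, limma 3.58.1 (voom), other scaling factors and filters, a fold threshold of 1.5, only the groups compared, a replicate block, and each day 4 or day 6 library left out. The 47 gene lists and the members were chosen with earlier results of these data known. Genes were named by a rule: the 15 largest rises and falls, 12 genes gained then lower, 8 lost then higher, and for each list up to 4 called members on the side with more calls and 2 on the opposite side, along with set genes; the rule gave 267 genes, of which 197 are named, and any named outside it is marked. Some genes of the rule are not reported here.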

Additional observations from a re-analysis of the deposited data

How the results depend on the processing

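The counts of genes higher (2851) and lower (2726) at day 6 than at day 4 stayed within 1.5 times under RLE factors, upper-quartile factors, DESeq2, limma voom, no filter, a filter of 5 CPM in 3 libraries and a fit of only the groups compared. With library totals 1331 genes were higher and 6263 lower, and 705 were gained by day 4 and then lower. When glmTreat required more than a 1.5-fold change, 972 were higher, 621 lower, 67 gained then lower and 15 lost then higher. With 1 library left out, 2308 to 3422 genes were higher, 1988 to 3431 lower, 254 to 674 gained then lower and 84 to 373 lost then higher. The lowest values of the last pair came without day 4 replicate 3 and all 4 highest values without day 6 replicate 2; the cause was not tested. The ratio of Spi1 was 1.33 with library totals and 1.69 to 1.8 with 1 library left out. Same-numbered day 4 and day 6 libraries did not deviate together (correlations of deviations from the group means -0.0427, -0.156 and -0.124). With 3 libraries per day and day 6 replicate 2 apart, these values cannot exclude that the numbers pair libraries. With a replicate block 2751 genes were higher and 2680 lower. Of the 190 genes named and called, 142 kept the call under every alternative, 10 lost it with library totals, 47 under glmTreat, 3 under the replicate block and 4 to 12 with 1 library left out. No named gene's fold change that was called changed sign, but the balance of calls turned from higher to lower with library totals in mitosis (13 and 0 to 1 and 16), apoptosis (14 and 6 to 4 and 12), autophagy (16 and 3 to 7 and 12), chromatin (12 and 3 to 2 and 19) and other lists given above. Depth limited genes with fewer than 3 counts in a library, 0.437 to 0.64 TMM CPM at these days.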
